A study of Mus musculus with 8 samples.

Results

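Nuclear receptors are transcription factors that bind DNA and, in many cases, a small lipophilic ligand. The transcripts described here are those of 32 mouse nuclear receptor genes, chosen by gene symbol and not by a measured value, though with earlier results of these data known. They span the PPAR, LXR, RXR, thyroid hormone, vitamin D, steroid, REV-ERB, ROR, TR2/TR4, COUP-TF, oestrogen-related, NR4A, GCNF, DAX1 and HNF4 receptors. *Rara*, *Rarb*, *Rarg*, *Rxra*, *Pparg*, *Esrrb* and *Nr5a2* were not part of this list. Of the 32 genes, 30 had a row among the 18990 genes of the deposited table, and *Rxrg* and *Hnf4a* had none. A mean of at least 1 CPM (reads scaled to library size) over the 8 libraries, which was required for a test, was reached by 25 of the 30 genes.

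All 8 libraries came from wild-type primary mouse embryonic fibroblasts (MEFs) of strain BL6 (C57/BL6 in the study's methods). The cells carried lentiviruses with the doxycycline-inducible tet-STEMCCA cassette for OCT4, SOX2, KLF4 and MYC (OSKM) and with rtTA, the activator through which doxycycline turns the cassette on, so both knockdowns were made in cells that express these factors from a transgene. They were transfected with pooled siRNAs (40 nM) and then reprogrammed, at passage 2 by the sample labels although the methods speak of seeding at an earlier passage, with 2 ug/mL doxycycline in medium with chiron (a GSK3 inhibitor), Alk5i (a TGF-beta receptor inhibitor), ascorbic acid and LIF. The 4 groups were *siNcor1* at day 3, *siNcor1* at day 6, *siOct4* at day 3 and *siOct4* at day 6 of reprogramming, with 2 biological replicates each. The non-targeting control was not analysed here, so each comparison sets one knockdown against the other, or one day against the other, and none is relative to untreated cells. The ages and number of the embryos behind the MEFs are not given in the sources used here.

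As background, most nuclear receptors bind a short DNA half-site, AGGTCA or a relative of it, alone or as dimers, and many of the non-steroid receptors pair with an RXR. Without ligand, several of them, the thyroid hormone receptors among them, hold a corepressor complex built on NCOR1 on their target genes. For these, ligand exchanges it for coactivators such as the NCOA proteins. NCOR1 is therefore a direct partner of this family, and OCT4 is tied to it in stem cells through GCNF (*Nr6a1*), which represses the gene encoding OCT4, and DAX1 (*Nr0b1*), which binds the OCT4 protein.

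RefSeq promoter windows on GRCm38.p6 (250 bases before to 50 after each annotated start) were found for 30 of the 32 genes, 42 windows in all. The half-site AGGTCA, read on both strands, stood in 6 of these 42 windows (14.29%), against 16.26% of all 32851 windows. Windows of *Nr6a1*, *Nr1d2*, *Thrb* and *Nr0b1* are printed because these 4 receptors are among those whose transcripts changed below and their windows hold the half-site, so the pair of elements in *Nr6a1* can be seen beside the single ones. Each stretch is on the strand of its gene, capitals mark AGGTCA or its reverse complement, and none of the bases lies in an annotated exon of that gene. 
Nr6a1, chr2:38784525-38784636, minus strand: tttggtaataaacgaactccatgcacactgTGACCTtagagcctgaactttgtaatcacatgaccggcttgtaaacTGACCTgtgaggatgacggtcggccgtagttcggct
Nr1d2, chr14:18239148-18239213, minus strand: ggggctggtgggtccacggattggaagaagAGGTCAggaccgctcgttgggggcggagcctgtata
Thrb, chr14:17660746-17660811, plus strand: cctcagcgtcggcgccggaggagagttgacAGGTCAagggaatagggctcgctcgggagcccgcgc
Nr0b1, chrX:86191619-86191684, plus strand: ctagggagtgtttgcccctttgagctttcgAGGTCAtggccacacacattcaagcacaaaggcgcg
The *Nr6a1* stretch lies before a RefSeq start that is inside the gene as GENCODE M21 bounds it (chr2:38723370-38927688), and the *Thrb* stretch also falls within its gene (chr14:17660261-18038090). Of the other motifs searched on both strands, the longer element of the oestrogen-related receptors, TCAAGGTCA, which contains AGGTCA, was in 0 of the 42 windows against 0.4231% of all windows. The E-box CACGTG of clock factors was in 2, which belong to *Esr2* and *Thrb*, against 7.15%. The octamer ATGCAAAT and the palindromic glucocorticoid response element were in 0 of the 42 windows, against 1.735% and 0.05784% of all. These matches describe letters in a window and not occupied sites.

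The libraries held between 7735742 and 16445192 reads on genes, recovered as whole numbers from the deposited values, and 3 reads correspond to 0.174 to 0.380 CPM. The non-coding gene *Gm26917* took 15.5% to 16.6% of the reads at day 3 and 20.3% to 29.1% at day 6, with the highest share in *siOct4* day 6 replicate 1. The 2 *siOct4* day 6 libraries differed more from each other than other replicates did, with a chi-square per degree of freedom of 21.3 against 9.48 to 10.6. *Ncor1* was lower in *siNcor1* than in *siOct4* at day 3 (the *siOct4* minus *siNcor1* log2 fold change was 0.74, SE 0.12, limma adjusted p = 0.0139), and at day 6 the difference was −0.042 (adjusted p = 0.815). For *Pou5f1*, the gene of OCT4, the same difference was −0.076 at day 3 (adjusted p = 0.941) and 1.78 at day 6 (adjusted p = 1.1e-04), so no loss of this transcript was seen in the libraries that carry the *siOct4* label. The other cassette genes lay higher there too at day 6, with *Sox2* at 9.60 and 8.94 log2-cpm against 7.76 and 7.51 in *siNcor1*, and *Klf4* and *Myc* likewise without overlap. The gene rows do not tell cassette reads from endogenous ones, silencing before day 3 was not measured here, and *siOct4* below means the libraries with that label. Of the marker lists, all 8 fibroblast genes were in the table, with a summed level of 6235 to 6373 CPM in *siNcor1* and 8749 to 10301 CPM in *siOct4* at day 3, and of 4504 to 4889 and 2477 to 2643 CPM at day 6. *Col1a1* and *Col1a2*, at 10.3 to 12.7 log2-cpm at day 3, make up most of this sum, and gene by gene the list went both ways, since from day 3 to day 6 5 of the 8 rose and 2 fell in *siNcor1* (median log2 fold change 0.71, with *Lum* at 2.70 and *Dcn* at 2.51 against *Col1a1* at −1.15), and 2 rose and 4 fell in *siOct4* (median −0.27). Epithelial markers (6 of 6 in the table) summed to 53.8 to 55.4 and 15.4 to 17.5 CPM at day 3, and to 656 to 695 and 282 to 312 CPM at day 6. Pluripotent cell markers (8 of 8, with *Zfp42* at 3 reads or fewer in every library) summed to 8.04 to 8.06 and 3.16 to 3.59 CPM, and then to 83.5 to 91.5 and 35.6 to 37.7 CPM. Neural markers (6 of 6) summed to 90.2 to 103 and 138 to 141 CPM at day 3, and to 98.8 to 111 and 183 to 220 CPM at day 6. *Tubb3* and *Stmn2* make up most of the neural sum. From day 3 to day 6, 1 of the 6 neural markers rose and 2 fell in *siNcor1*, and 3 rose and 1, *Sox10*, fell in *siOct4*. The macrophage, endothelial and keratinocyte lists stayed at or below 44.4 CPM in every library, with *Ptprc* and *Tie1* absent from the table, *Emcn* and *Krt15* at 3 reads or fewer, and 0 of 6 hepatocyte markers in the table.

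Per kilobase of exon, the 30 measured receptors covered a wide range of levels. *Esrra*, an orphan receptor that drives mitochondrial genes, had the highest mean over the 8 libraries, 17.2 CPM per kilobase, and was followed by the LXR beta gene *Nr1h2* (12.3), *Thra* (11.3), *Rxrb* (11.1), the glucocorticoid receptor gene *Nr3c1* (11.1) and *Ppard* (9.38). Neighbours in this order overlapped over the libraries, for example *Nr1h2* at 10.1 to 15.0 and *Thra* at 8.26 to 18.0 CPM per kilobase. At the lower end of the tested genes were *Rorb* (0.276), the mineralocorticoid receptor gene *Nr3c2* (0.176) and the oestrogen receptor alpha gene *Esr1* (0.0914).

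**Figure D1:**
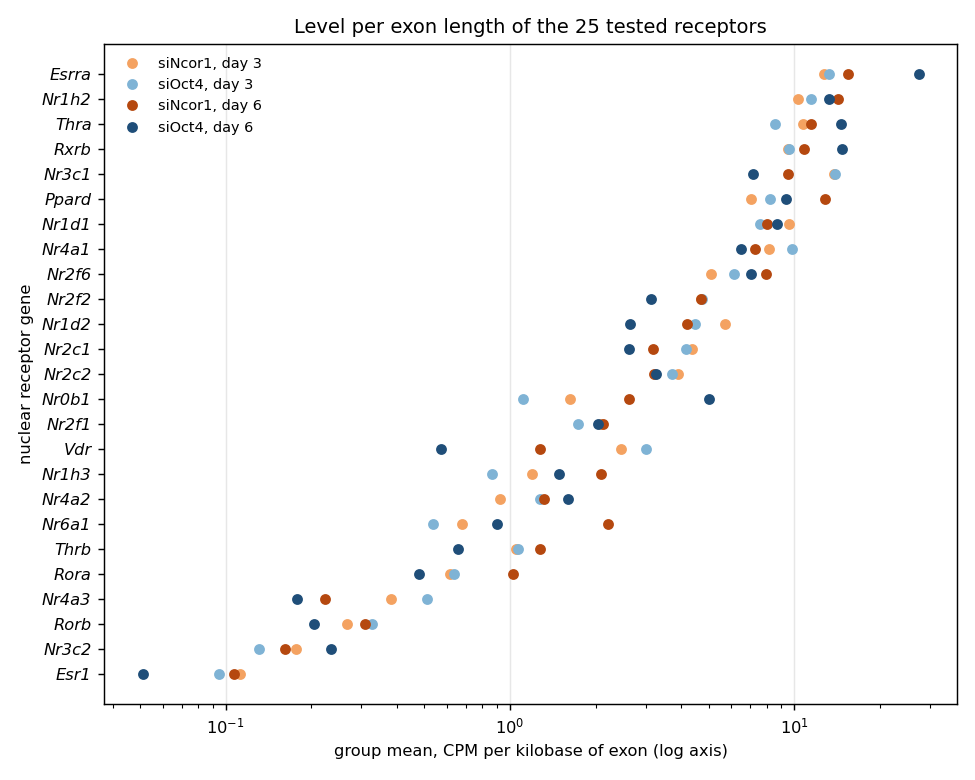
Group means of the level per exon length, in CPM per kilobase on a log axis, for the 25 tested receptors, 1 point per group of 2 libraries. *Esrra* in *siOct4* at day 6 (27.4) is the rightmost point, and *Esr1* in the same group (0.0512) is the leftmost.

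Too low to judge were the receptors *Ppara*, *Nr1h4*, *Esr2*, *Esrrg* and *Pgr*. *Ppara*, the PPAR of liver fat burning, had 4 to 10 reads per library. The bile acid receptor gene *Nr1h4* had 0 to 7 reads, the oestrogen receptor beta gene *Esr2* 0 to 10, *Esrrg* 0 to 6 and the progesterone receptor gene *Pgr* 2 to 10. Their mean levels lay between 0.213 and 0.610 CPM, near that of 3 reads, and they were not tested with the other receptors. *Esr2* had 10 and 10 reads in *siOct4* at day 3 and 2 and 0 at day 6, and in a fit without the filter on low values it was the one of these 5 to pass the threshold, over time in *siOct4* (limma, adjusted p = 0.00514).

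**Figure D2:**
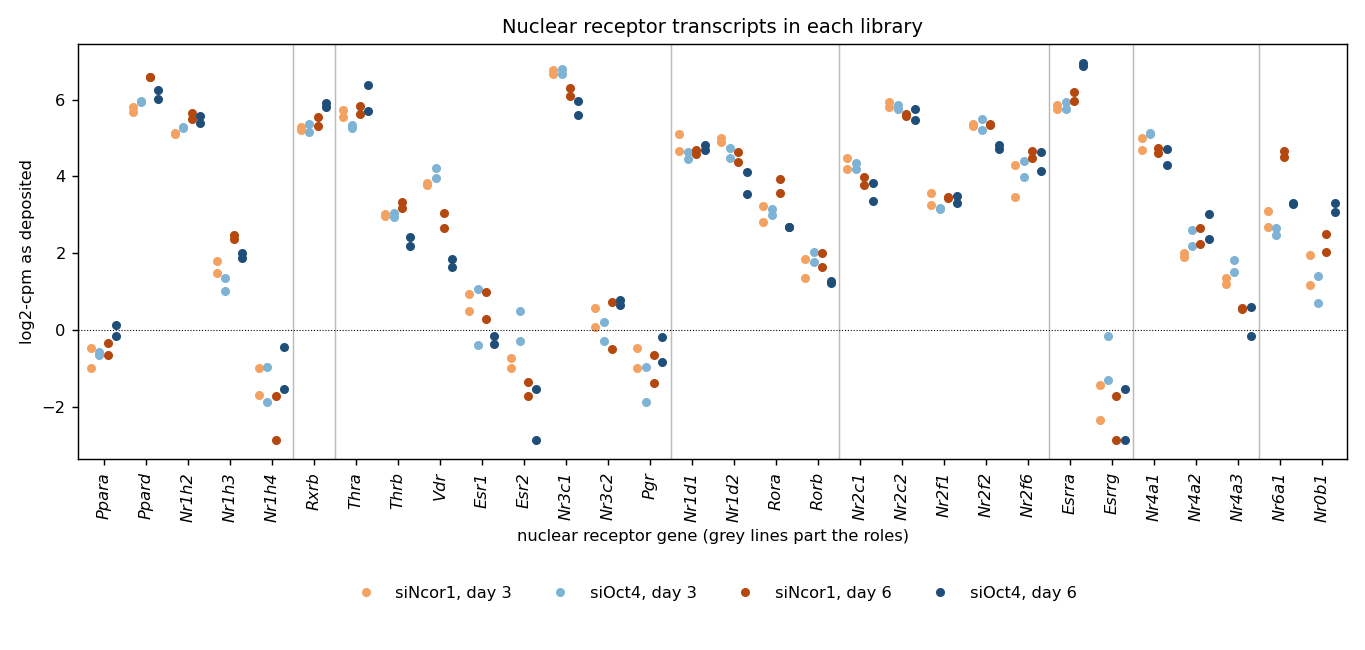
Deposited log2-cpm of each of the 30 measured receptors (grouped by role), 1 point per library, 2 libraries in each of the 4 groups. *Nr3c1* and *Esrra* reach the top of the plot at 6.81 and 6.96, and the lowest values, −2.87, stand for 0 reads.

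Whether the receptor transcripts differed between the knockdowns was first asked at day 3. None of the 25 tested receptors passed the threshold there (limma on log2-cpm, Benjamini-Hochberg adjusted p under 0.05 over 13866 genes), where 1.07% of all tested genes did (0.375% higher and 0.692% lower in *siOct4*). No receptor had an unadjusted p under 0.05 either, and with voom on the recovered reads the counts were 0 past the threshold and 1, *Nr1d1*, at an unadjusted p under 0.05. The lowest estimate was that of *Nr0b1*, −0.51 (95% interval −1.23 to 0.22), and the highest that of *Nr4a2*, 0.44 (−0.15 to 1.04).

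At day 6 the knockdowns differed for 10 of the 25 receptors (40%), against 30.7% of all tested genes. Higher in *siOct4* were *Esrra* and *Rxrb* (12.1% of all genes were higher), and lower were *Nr6a1*, *Vdr*, *Rora*, *Thrb*, *Nr1d2*, *Nr2f2*, *Ppard* and *Nr3c1* (18.6% of all genes were lower). The median log2 fold change was −0.28 over the 25 receptors and −0.025 over all 13866 genes. Without *siOct4* day 6 replicate 2 the receptor median was −0.13, and with no filter or with a mean of at least 10 CPM it was −0.19. The count was 3 without *siNcor1* day 6 replicate 2 (*Nr6a1*, *Vdr* and *Esrra*) and 7 without either *siNcor1* day 6 replicate 1 or *siOct4* day 6 replicate 1. When a library is left out, the lone library of its group is assumed to vary like the other groups. Summed fibroblast, epithelial and pluripotent cell markers were all lower and neural markers higher in the *siOct4* libraries of day 6, without overlap, and their part in these differences was not tested. Gene by gene (limma, adjusted p under 0.05), 6 of 8 fibroblast, 4 of 6 epithelial and 4 of 7 tested pluripotent cell markers were lower there and 0 higher. Of 6 neural markers, 3 were higher and 0 lower. In bulk RNA, fewer cells of a type and less RNA per cell cannot be told apart.

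**Figure D3:**
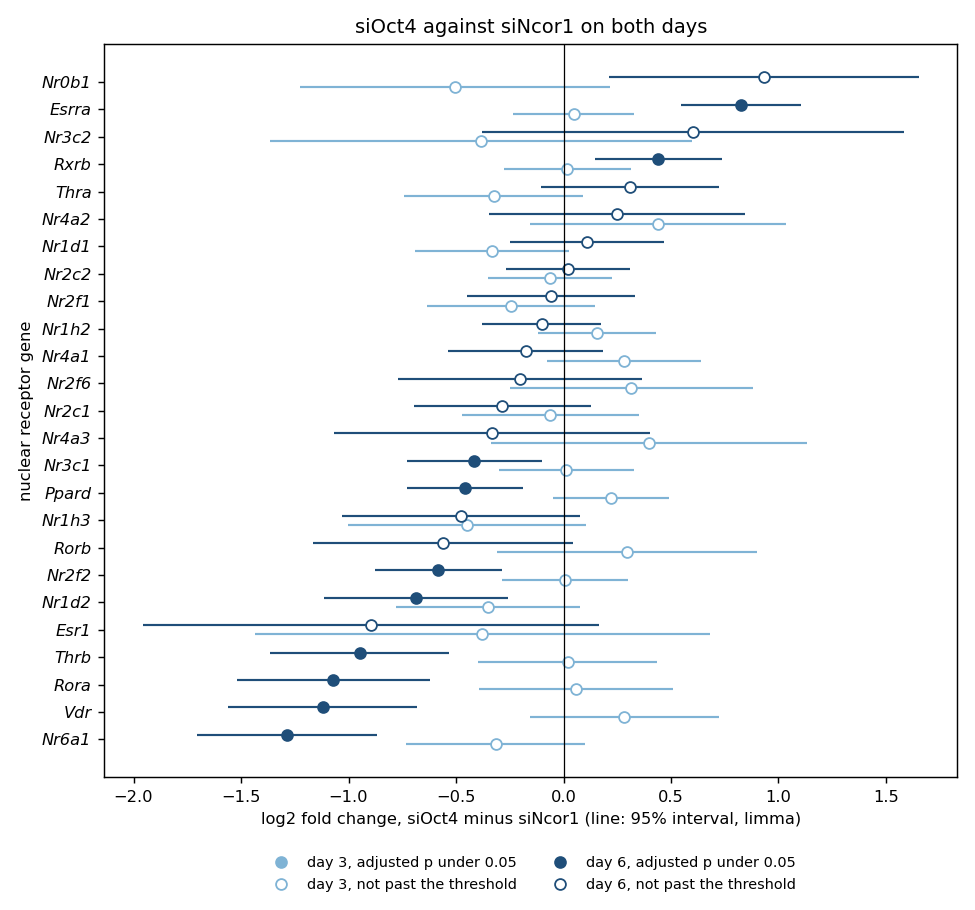
Log2 fold change, *siOct4* minus *siNcor1*, of the 25 tested receptors at day 3 and day 6 (x axis), with limma's 95% interval as a line, sorted by the day 6 value, and filled points for an adjusted p under 0.05. All day 3 points are open, and the filled day 6 points run from −1.29 (*Nr6a1*) to 0.83 (*Esrra*).

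From day 3 to day 6 the receptors moved in both directions in each knockdown. In *siNcor1*, 7 of 25 passed the threshold (28%, against 34.8% of all genes), with *Nr6a1*, *Ppard*, *Nr1h3*, *Rora* and *Nr1h2* higher at day 6 (13.8% of all genes were higher) and *Vdr* and *Nr3c1* lower (20.9%). In *siOct4*, 14 of 25 passed (56%, against 52.7%), with *Nr0b1*, *Esrra*, *Nr1h3*, *Thra*, *Nr6a1* and *Rxrb* higher (22.2%) and *Vdr*, *Nr4a3*, *Nr3c1*, *Nr1d2*, *Thrb*, *Nr2c1*, *Nr4a1* and *Nr2f2* lower (30.5%). Both shares lie near those of all genes. The *siNcor1* count was 3 without *siNcor1* day 3 replicate 2 and 4 without *siNcor1* day 6 replicate 1, while the *siOct4* count was 10 without *siOct4* day 3 replicate 1 and 12 without *siOct4* day 6 replicate 1. At day 6 the summed epithelial and pluripotent cell markers stood above their day 3 range in both knockdowns, while the fibroblast markers moved in both directions as given above, and their part in the changes was not tested.

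**Figure D4:**
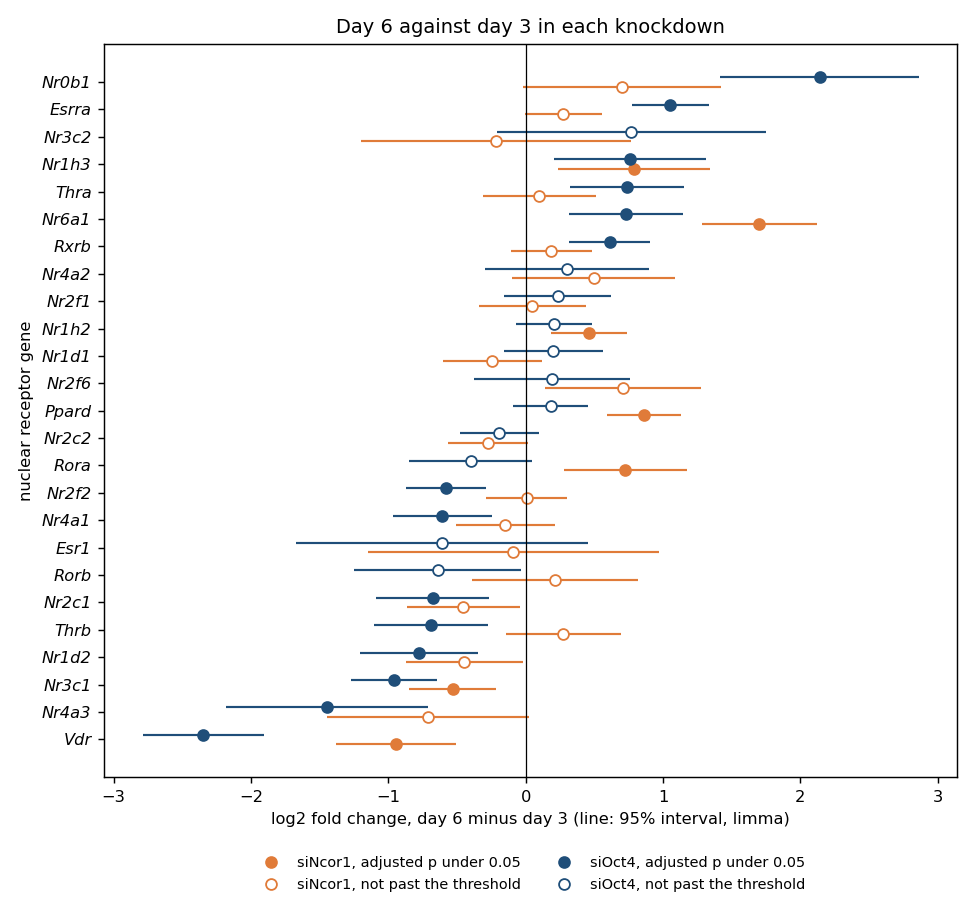
Log2 fold change, day 6 minus day 3, of the 25 tested receptors in *siNcor1* and in *siOct4* (x axis), with limma's 95% interval as a line, sorted by the *siOct4* value, and filled points for an adjusted p under 0.05. *Vdr* in *siOct4* (−2.35) and *Nr0b1* in *siOct4* (2.14) are at the ends.

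The difference between the knockdowns itself changed from day 3 to day 6 (the interaction of knockdown and day) for 8 of 25 receptors (32%), against 20.7% of all genes. It became more negative for *Vdr*, *Rora*, *Nr6a1*, *Thrb*, *Ppard* and *Nr2f2* (12.9% of all genes) and more positive for *Esrra* and *Nr0b1* (7.77%). The median interaction was −0.33 over the receptors and 0.012 over all tested genes. This count rests on single libraries, since it was 1 (*Vdr*) without *siNcor1* day 6 replicate 2, 2 without *siNcor1* day 3 replicate 2, 3 without *siOct4* day 3 replicate 1, *siOct4* day 3 replicate 2 or *siNcor1* day 6 replicate 1, and 5 without *siNcor1* day 3 replicate 1. The 5 comparisons reuse the same 4 groups, so their calls are not independent of each other, and no share of receptors was tested against the share of all genes.

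**Figure D5:**
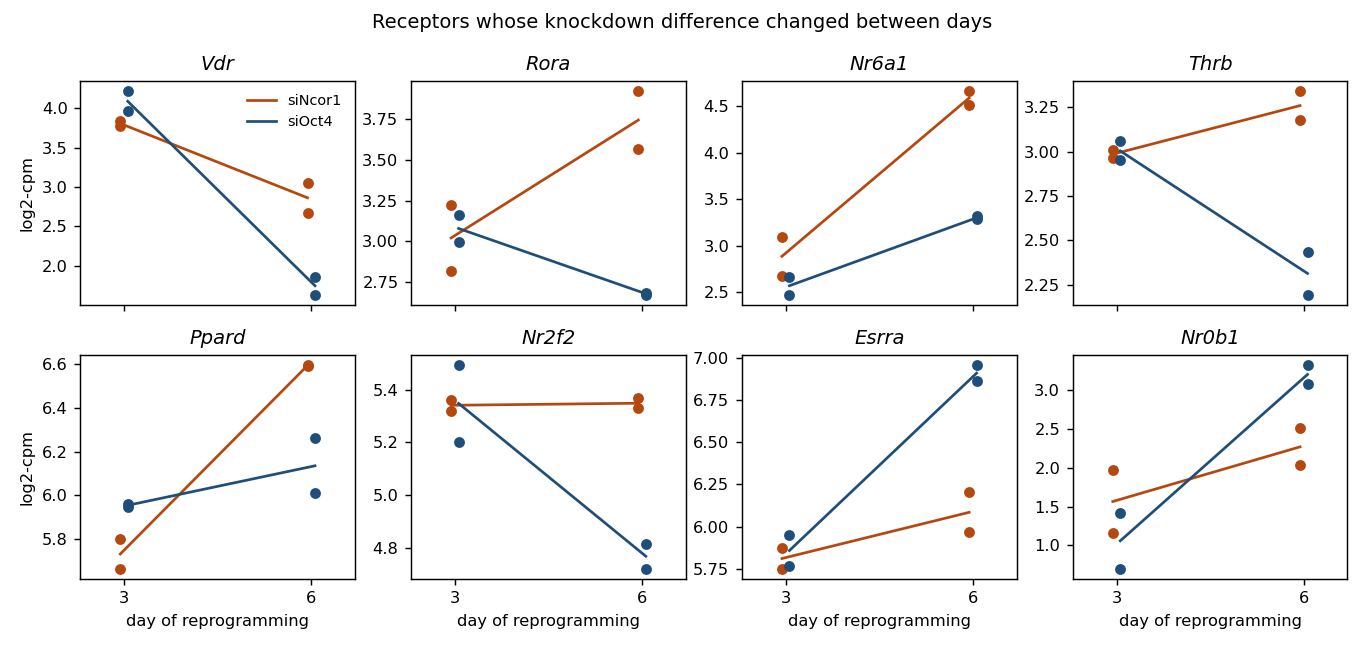
Log2-cpm at day 3 and day 6 of the 8 receptors whose *siOct4* minus *siNcor1* difference changed between the days, 1 point per library and a line through the group means, with a y axis of its own in each panel. The *siOct4* line ends below the *siNcor1* line at day 6 in the first 6 panels and ends above it for *Esrra* and *Nr0b1*.

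Among the lipid sensors, *Ppard*, the broadly expressed fatty acid receptor of the PPAR family (chr17:28232700-28301474), passed the test of time in *siNcor1* and not in *siOct4*. Its *siNcor1* libraries had 5.80 and 5.67 log2-cpm at day 3 and 6.59 and 6.59 at day 6. Its *siOct4* libraries had 5.95 and 5.96 at day 3 and 6.26 and 6.01 at day 6, so both day 6 groups lay above both day 3 groups without overlap. The rise was 0.86 on the log2 scale in *siNcor1* (SE 0.12, limma adjusted p = 4.40e-04) and 0.18 in *siOct4* (adjusted p = 0.240). At day 6 *Ppard* was lower in *siOct4* (−0.46, SE 0.12, adjusted p = 0.0166), and the interaction was −0.68 (SE 0.18, adjusted p = 0.0196). Left out 1 at a time, *siNcor1* day 6 replicate 1, *siNcor1* day 6 replicate 2 and *siOct4* day 6 replicate 2 each ended the day 6 call (−0.46, −0.46 and −0.33, adjusted p = 0.0809, 0.105 and 0.0572), as did a fit of only the groups compared (adjusted p = 0.0501). The interaction was lost without *siNcor1* day 3 replicate 2, either *siOct4* day 3 library or either *siNcor1* day 6 library (−0.61 to −0.69, adjusted p = 0.0535 to 0.0944) and without a variance trend (adjusted p = 0.0584).

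The LXR genes encode receptors for oxysterols that drive cholesterol export. *Nr1h3*, LXR alpha, had 1.80 and 1.49 log2-cpm in *siNcor1* at day 3 and 2.37 and 2.49 at day 6, and 1.36 and 1.02 in *siOct4* at day 3 and 2.02 and 1.89 at day 6. It rested on 15 to 65 reads per library, and in each knockdown the day 6 libraries lay above those of day 3. The rise was 0.79 in *siNcor1* (SE 0.25, limma adjusted p = 0.0312) and 0.76 in *siOct4* (SE 0.25, adjusted p = 0.0247). Quantile normalization ended both calls (0.55 and 0.55, adjusted p = 0.12 and 0.0948). The *siNcor1* call was also lost without any 1 of the 4 *siNcor1* libraries (0.63 to 0.94, adjusted p = 0.0569 to 0.193), and the *siOct4* call without *siOct4* day 3 replicate 2 (0.59, adjusted p = 0.149), without *siOct4* day 6 replicate 1 (0.69, adjusted p = 0.0788), with voom (adjusted p = 0.0703) and in a fit of only the groups compared (adjusted p = 0.0696). *Nr1h2*, LXR beta, had 5.14 and 5.09 in *siNcor1* at day 3 and 5.65 and 5.50 at day 6, a rise of 0.46 (SE 0.13, adjusted p = 0.0147), while its 4 *siOct4* values lay between 5.27 and 5.57 with a change of 0.20 (adjusted p = 0.195). That rise was not past the threshold without *siNcor1* day 3 replicate 1 (0.48, adjusted p = 0.0542), *siNcor1* day 3 replicate 2 (0.44, adjusted p = 0.0899) or *siNcor1* day 6 replicate 1 (0.39, adjusted p = 0.135).

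Of the LXR target list, 9 of 11 genes were tested, and 7 of the 9 were lower and 0 higher in *siOct4* at day 6. This and the other lists were chosen with earlier results of these data known. For this and the lists below, each count is to be set beside the share of all tested genes. At day 6, 12.1% were higher and 18.6% lower in *siOct4*, and at day 3, 0.375% and 0.692%. Over time, 13.8% were higher and 20.9% lower in *siNcor1*, and 22.2% and 30.5% in *siOct4*. The interaction passed with a positive value for 7.77% and with a negative value for 12.9%. The 7 lower LXR targets include *Apoe*, a lipoprotein component (−1.46, SE 0.17, limma adjusted p = 3.62e-04), the cholesterol exporter *Abca1* (−1.09, adjusted p = 8.57e-04), *Mylip*, which degrades the LDL receptor (−0.98, adjusted p = 0.00262), and the desaturase *Scd2* (−0.47, adjusted p = 0.0197). The median of the 9 was −0.47 against −0.025 over all genes. From day 3 to day 6, 2 rose and 1 fell in *siNcor1*, with *Apoe* up by 3.13 (adjusted p = 7.82e-07), *Abcg1* up by 1.40 and *Abca1* at −0.49, and 1 rose and 4 fell in *siOct4*, with *Apoe* up by 2.02 and *Mylip* at −1.60. The PPARA and PPARD target list for fatty acid oxidation had 14 of 16 genes tested, of which 6 were lower and 0 higher in *siOct4* at day 6, among them *Plin2* of lipid droplets (−0.91, adjusted p = 0.00215), *Cpt1a*, the gate of mitochondrial fatty acid uptake (−0.90, adjusted p = 8.93e-04), and *Pdk4* (−0.90, adjusted p = 0.0219). Over time 3 of the 14 rose and 0 fell in *siNcor1* (13.8% and 20.9% of all genes), and 2 rose and 8 fell in *siOct4* (22.2% and 30.5%), where *Pdk4* was at −1.92 (adjusted p = 9.20e-05). *Plin2* and *Angptl4* were higher at day 6 in both knockdowns. At day 3, 0 genes of either list differed between the knockdowns, where 1.07% of all tested genes did.

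*Rxrb* encodes RXR beta, one of the dimer partners shared by the LXR, PPAR, thyroid hormone and vitamin D receptors. It had 5.20 and 5.28 log2-cpm in *siNcor1* at day 3 and 5.55 and 5.30 at day 6, and 5.35 and 5.16 in *siOct4* at day 3 and 5.92 and 5.82 at day 6. The 2 *siOct4* day 6 libraries were above the other 6. The rise in *siOct4* was 0.61 (SE 0.14, limma adjusted p = 0.00253), that in *siNcor1* was 0.19 (adjusted p = 0.310), and the knockdown difference at day 6 was 0.44 (SE 0.14, adjusted p = 0.0288). The interaction, 0.42, did not pass (adjusted p = 0.134). The day 6 call was lost without *siNcor1* day 6 replicate 2 (0.32, adjusted p = 0.254) or *siOct4* day 6 replicate 1 (0.39, adjusted p = 0.0731), and under 4 alternatives that keep all libraries (adjusted p = 0.0577 to 0.0663).

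Of the hormone receptors, *Vdr*, the vitamin D receptor (chr15:97854425-97910630), had the steepest decline. Its *siNcor1* libraries stood at 3.84 and 3.78 log2-cpm at day 3 and 3.06 and 2.67 at day 6. Its *siOct4* libraries stood at 3.96 and 4.22 at day 3 and 1.63 and 1.85 at day 6, when they held 28 and 41 reads. The groups did not overlap in any comparison, with *siOct4* the highest at day 3 and the lowest at day 6. *Vdr* fell by 0.95 in *siNcor1* (SE 0.20, limma adjusted p = 0.00406) and by 2.35 in *siOct4*, where it was 5.09-fold lower at day 6 (SE 0.20, adjusted p = 3.88e-06). At day 6 the *siOct4* value was lower (−1.12, SE 0.20, adjusted p = 0.00234) and the interaction was −1.40 (SE 0.28, adjusted p = 0.00639). These 4 calls held under all the alternatives run, with or without any 1 library.

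The genes of the thyroid hormone receptors moved apart. *Thrb* had 3.01 and 2.96 log2-cpm in *siNcor1* at day 3 and 3.18 and 3.34 at day 6, and 3.06 and 2.95 in *siOct4* at day 3 and 2.19 and 2.43 at day 6. The *siOct4* day 6 libraries were below all others. At day 6 *Thrb* was lower in *siOct4* (−0.95, SE 0.19, limma adjusted p = 0.0040), it fell by 0.69 over time in *siOct4* (SE 0.19, adjusted p = 0.00939) and changed by 0.27 in *siNcor1* (adjusted p = 0.291), and the interaction was −0.97 (SE 0.27, adjusted p = 0.0272). Without *siNcor1* day 6 replicate 2 the day 6 difference was −0.87 (adjusted p = 0.0533), without *siOct4* day 3 replicate 1 the fall in *siOct4* was −0.64 (adjusted p = 0.0575), and the interaction was lost without any 1 of the 6 libraries other than the *siOct4* day 6 ones (−0.88 to −1.05, adjusted p = 0.0562 to 0.119). *Thra* had 5.72 and 5.54 in *siNcor1* at day 3 and 5.83 and 5.63 at day 6, and 5.35 and 5.26 in *siOct4* at day 3 and 6.38 and 5.70 at day 6. It rose by 0.73 in *siOct4* (SE 0.19, adjusted p = 0.0065), a value that was 0.39 without *siOct4* day 6 replicate 1, the library at 6.38. The knockdown difference at day 6 was 0.31 (adjusted p = 0.237) and the groups overlapped. *Thra* shares 263 exon bases (5.70% of its exons) with *Nr1d1* on the other strand of chromosome 11, and whether the counting used strand is not given in the sources used here.

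Of a list of thyroid hormone and vitamin D response genes, 6 of 10 were tested, and 3 were lower and 0 higher in *siOct4* at day 6. These were the deiodinases *Dio3* (−1.48, SE 0.50, limma adjusted p = 0.0430) and *Dio2* (−0.85, adjusted p = 0.0323) and malic enzyme, *Me1* (−0.51, adjusted p = 0.00902). In both knockdowns 1 rose and 2 fell from day 3 to day 6. The one that rose was *Cyp27b1*, the enzyme that makes active vitamin D, by 2.37 in *siNcor1* (adjusted p = 7.53e-04) and 3.50 in *siOct4* (adjusted p = 1.75e-05), while *Dio3* was at −1.92 and −3.60. Both genes were scarce where they were lowest. *Dio3* had −1.52 and 0.31 log2-cpm in *siOct4* at day 6, against 0.70 and 1.05 in *siNcor1*, and *Cyp27b1* lay between −1.17 and −0.48 at day 3.

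*Nr3c1*, which encodes the glucocorticoid receptor, was the most abundant member by log2-cpm at day 3. It had 6.77 and 6.68 log2-cpm in *siNcor1* at day 3 and 6.08 and 6.30 at day 6, and 6.67 and 6.81 in *siOct4* at day 3 and 5.59 and 5.96 at day 6. Every day 6 library was below every day 3 library. *Nr3c1* fell by 0.53 in *siNcor1* (SE 0.14, limma adjusted p = 0.0136) and by 0.96 in *siOct4* (SE 0.14, adjusted p = 1.88e-04). The knockdown difference at day 6 was −0.41 (SE 0.14, adjusted p = 0.0464) and did not hold without any 1 library other than *siOct4* day 6 replicate 2 (−0.23 to −0.52, adjusted p = 0.0631 to 0.302), nor under 4 alternatives that keep all libraries (adjusted p = 0.0574 to 0.110). The fall in *siNcor1* was lost with quantile normalization (−0.33, adjusted p = 0.0876), without a variance trend (adjusted p = 0.0503) and without *siNcor1* day 3 replicate 1 (−0.49, adjusted p = 0.0869), *siNcor1* day 3 replicate 2 (−0.58, adjusted p = 0.0599) or *siNcor1* day 6 replicate 1 (−0.43, adjusted p = 0.13).

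Among 12 glucocorticoid response genes, 2 were higher and 5 lower in *siOct4* at day 6. The cell cycle inhibitor *Cdkn1c* was at −1.91 (SE 0.19, limma adjusted p = 1.96e-04), the kinase *Sgk1* at −1.11 (adjusted p = 0.00127) and the metallothionein *Mt2* at −1.06 (adjusted p = 0.0435), while the zinc finger gene *Zbtb16* was at 1.23 (adjusted p = 0.0191). Over time 5 rose and 1 fell in *siNcor1*, and 4 rose and 2 fell in *siOct4*. *Mt2* rose by 3.57 and 2.71 and *Mt1* by 2.95 and 2.27 in *siNcor1* and *siOct4*. Both metallothioneins were higher in replicate 1 than in replicate 2 of every group. At day 6 *Mt2* had 6.01 and 5.41 log2-cpm in *siNcor1* and 5.04 and 4.25 in *siOct4*.

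The other steroid receptors were scarce. *Esr1* lay between −0.38 and 1.07 log2-cpm on 5 to 29 reads, with a day 6 difference of −0.90 (95% interval −1.96 to 0.16, limma adjusted p = 0.183), and *Nr3c2* between −0.48 and 0.78 on 7 to 22 reads, with 0.60 (−0.38 to 1.58, adjusted p = 0.333). Neither passed the threshold in any of the 5 comparisons, and at day 6 the groups overlapped for *Nr3c2* and not for *Esr1*. Of 6 tested oestrogen and progesterone response genes, 1 was higher and 3 were lower in *siOct4* at day 6, with *Greb1* at 0.61 (adjusted p = 0.0258), *Wnt4* at −1.20 (adjusted p = 0.00198), *Igfbp4* at −0.70 (adjusted p = 0.00409) and *Xbp1* at −0.36 (adjusted p = 0.0400). From day 3 to day 6, 1 rose and 1 fell in *siNcor1*, and 3 rose and 3 fell in *siOct4*.

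The clock receptors compete for one DNA element, which the REV-ERBs (*Nr1d1*, *Nr1d2*) repress together with NCOR1 and the RORs (*Rora*, *Rorb*) activate. *Rora* had 3.23 and 2.82 log2-cpm in *siNcor1* at day 3 and 3.57 and 3.92 at day 6, and 3.16 and 3.00 in *siOct4* at day 3 and 2.67 and 2.68 at day 6. At day 6 both *siNcor1* libraries were above all others and both *siOct4* libraries below. *Rora* was lower in *siOct4* at day 6 (−1.07, SE 0.21, limma adjusted p = 0.00324), rose by 0.73 in *siNcor1* (SE 0.21, adjusted p = 0.0177), changed by −0.40 in *siOct4* (adjusted p = 0.122) and had an interaction of −1.13 (SE 0.29, adjusted p = 0.0200). Without *siNcor1* day 6 replicate 2, the library at 3.92, these became −0.89 (adjusted p = 0.0528), 0.55 (adjusted p = 0.157) and −0.95 (adjusted p = 0.104). The rise was also lost without *siNcor1* day 3 replicate 2 (0.52, adjusted p = 0.165), and the interaction without that library (−0.92, adjusted p = 0.105) or *siOct4* day 3 replicate 1 (−1.05, adjusted p = 0.0629).

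*Nr1d2*, REV-ERB beta, had 5.01 and 4.90 log2-cpm in *siNcor1* at day 3 and 4.64 and 4.37 at day 6, and 4.74 and 4.47 in *siOct4* at day 3 and 3.53 and 4.12 at day 6. It was lower in *siOct4* at day 6 (−0.68, SE 0.20, limma adjusted p = 0.0216) and fell over time in *siOct4* by 0.78 (SE 0.20, adjusted p = 0.00563), with −0.45 in *siNcor1* (adjusted p = 0.0985). Without *siOct4* day 6 replicate 1, the library at 3.53, the 2 values were −0.39 (adjusted p = 0.114) and −0.49. The day 6 call was also lost without either *siNcor1* day 6 library (−0.55 and −0.82, adjusted p = 0.139 and 0.0571), without a variance trend (adjusted p = 0.0611) and in a fit of only the groups compared (adjusted p = 0.0595), and the fall without *siOct4* day 3 replicate 1 (−0.65, adjusted p = 0.0542). *Nr1d2* and *Thrb* are neighbours on chromosome 14. *Nr1d1*, REV-ERB alpha, lay between 4.44 and 5.09 in all 8 libraries, and *Rorb* between 1.24 and 2.02 on 21 to 58 reads. Neither passed the threshold in any comparison. The 95% interval of the *Nr1d1* difference was −0.69 to 0.024 at day 3 and −0.25 to 0.47 at day 6, and 8.55% of its exon bases are the ones shared with *Thra*.

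All 15 clock genes listed as partners of these receptors were tested. At day 6, 1 was higher and 2 were lower in *siOct4*, namely *Hlf* (0.91, SE 0.28, limma adjusted p = 0.0302), *Nfil3*, a repressor that REV-ERBs control (−1.23, adjusted p = 4.16e-04), and *Bhlhe40* (−0.58, adjusted p = 0.0200). From day 3 to day 6, 1 rose (*Bhlhe41*, 0.88) and 1 fell (*Clock*, −0.61) in *siNcor1*. In *siOct4*, 5 rose and 5 fell, with *Ciart* at 1.52 and *Bhlhe41* at 1.38 (adjusted p = 0.0018 and 5.29e-04), and *Nfil3* at −1.58 and *Npas2* at −1.22 (adjusted p = 7.24e-06 and 0.00791). Libraries were taken at single times, and the hour of collection is not given in the sources used here.

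The COUP-TFs are orphan receptors of mesenchymal and developing tissues. *Nr2f2*, COUP-TFII, had 5.36 and 5.32 log2-cpm in *siNcor1* at day 3 and 5.33 and 5.37 at day 6, and 5.49 and 5.20 in *siOct4* at day 3 and 4.81 and 4.72 at day 6. Only the *siOct4* day 6 libraries stood below 5. The day 6 difference was −0.58 (SE 0.13, limma adjusted p = 0.00806), the change over time −0.58 in *siOct4* (SE 0.13, adjusted p = 0.00343) and 0.0079 in *siNcor1* (adjusted p = 0.969), and the interaction −0.59 (SE 0.19, adjusted p = 0.0474). Without *siNcor1* day 6 replicate 2 the difference was −0.56 (adjusted p = 0.0726), and without *siOct4* day 3 replicate 1 the change was −0.44 (adjusted p = 0.0506). The interaction was lost without any 1 library other than *siOct4* day 6 replicate 1 (−0.44 to −0.73, adjusted p = 0.0511 to 0.173) and under 3 alternatives that keep all libraries (adjusted p = 0.0601 to 0.0894). *Nr2f2* shares 7.46% of its exon bases with the non-coding *B130024G19Rik* on the other strand.

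*Nr2c1*, the testicular receptor TR2, had 4.20 and 4.47 log2-cpm in *siNcor1* at day 3 and 3.77 and 3.99 at day 6, and 4.20 and 4.35 in *siOct4* at day 3 and 3.36 and 3.83 at day 6. It fell by 0.68 in *siOct4* (SE 0.19, limma adjusted p = 0.00998), and changed by −0.45 in *siNcor1* (adjusted p = 0.0820). The fall was −0.60 without *siOct4* day 3 replicate 2 (adjusted p = 0.0741) and −0.44 without *siOct4* day 6 replicate 1 (adjusted p = 0.0638). The remaining orphan receptors of this class passed the threshold in no comparison. *Nr2c2* (TR4) lay between 5.46 and 5.93, *Nr2f1* (COUP-TFI) between 3.15 and 3.56, and *Nr2f6* (EAR2) between 3.46 and 4.67. *Nr2f6* shares 54.4% of its exon bases with *Ocel1* and *Nr2c2* 30.7% with *Mrps25*, both on the other strand, so reads of those stretches cannot be told apart without strand.

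*Esrra* (chr19:6910977-6921813), the oestrogen-related receptor alpha gene, showed the larger of the 2 excesses past the threshold in *siOct4* at day 6. The estimate for *Nr0b1*, 0.93, was higher but just outside the threshold. The values that follow are those of *Esrra*. It had 5.75 and 5.87 log2-cpm in *siNcor1* at day 3 and 6.20 and 5.97 at day 6, and 5.95 and 5.77 in *siOct4* at day 3 and 6.96 and 6.86 at day 6. The 2 *siOct4* day 6 libraries, with 1174 and 1370 reads, exceeded all others, while at day 3 the groups overlapped. *Esrra* was higher in *siOct4* at day 6 by 0.83, or 1.77-fold (SE 0.13, limma adjusted p = 0.00115), and rose by 1.05 in *siOct4* (SE 0.13, adjusted p = 4.61e-05) against 0.27 in *siNcor1* (adjusted p = 0.120). Both calls held under all the alternatives run. The interaction, 0.78 (SE 0.18, adjusted p = 0.0128), was 0.72, 0.69 and 0.66 without *siNcor1* day 3 replicate 2, *siOct4* day 3 replicate 2 and *siNcor1* day 6 replicate 2 (adjusted p = 0.0709, 0.0652 and 0.0787). Its exons share 1.66% of their bases with *Trmt112* on the other strand.

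The NR4A receptors are immediate-early genes that act without a known physiological ligand. *Nr4a3* had 1.35 and 1.19 log2-cpm in *siNcor1* at day 3 and 0.54 and 0.57 at day 6, and 1.51 and 1.83 in *siOct4* at day 3 and 0.59 and −0.15 at day 6, on 9 to 40 reads. Day 6 libraries were all below day 3 libraries. It fell by 1.45 in *siOct4* (SE 0.34, limma adjusted p = 0.0035), and the value in *siNcor1*, −0.71, did not pass (adjusted p = 0.121). *Nr4a1* had 4.99 and 4.67 in *siNcor1* at day 3 and 4.62 and 4.75 at day 6, and 5.09 and 5.13 in *siOct4* at day 3 and 4.70 and 4.31 at day 6. It fell by 0.61 in *siOct4* (SE 0.16, adjusted p = 0.00863), which was −0.59 without *siOct4* day 3 replicate 2 (adjusted p = 0.0532), and changed by −0.15 in *siNcor1* (adjusted p = 0.512). *Nr4a2* lay between 1.90 and 3.03 and passed in no comparison. At day 6 none of the 3 differed between the knockdowns (limma, 0 at an unadjusted p under 0.05), with values of −0.33, −0.18 and 0.25 for *Nr4a3*, *Nr4a1* and *Nr4a2*.

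Of 12 other immediate-early genes, 1 was higher and 3 were lower in *siOct4* at day 6, *Ier2* at 0.41 (SE 0.13, limma adjusted p = 0.0382), *Dusp1* at −0.91 (adjusted p = 0.00170), *Btg2* at −0.68 (adjusted p = 0.00141) and *Ier3* at −0.58 (adjusted p = 0.00708). In *siNcor1* 1 rose over time, *Ier2* by 0.40 (adjusted p = 0.0368), and 0 fell. In *siOct4* 2 rose and 4 fell, with *Atf3* at 1.22, *Dusp1* at −1.11, *Egr1* at −0.97 and *Ier3* at −0.86.

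*Nr6a1*, which encodes germ cell nuclear factor, had the largest knockdown difference of the 25 receptors at day 6. It had 2.67 and 3.10 log2-cpm in *siNcor1* at day 3 and 4.51 and 4.66 at day 6, and 2.47 and 2.66 in *siOct4* at day 3 and 3.32 and 3.28 at day 6. The *siNcor1* day 6 libraries held 275 and 299 reads against 93 and 113 in *siOct4*, and stood apart from the rest. *Nr6a1* rose by 1.70 in *siNcor1*, or 3.25-fold (SE 0.19, limma adjusted p = 9.29e-05), and by 0.73 in *siOct4* (SE 0.19, adjusted p = 0.00705). At day 6 it was lower in *siOct4* (−1.29, SE 0.19, adjusted p = 8.83e-04), and the interaction was −0.97 (SE 0.27, adjusted p = 0.0269). The rise in *siNcor1* and the day 6 difference held under all the alternatives run. The rise in *siOct4* was 0.64 without *siOct4* day 3 replicate 1 (adjusted p = 0.0518), and the interaction was lost without *siNcor1* day 3 replicate 1, *siOct4* day 3 replicate 2 or either *siNcor1* day 6 library (−0.76 to −1.04, adjusted p = 0.0596 to 0.118).

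*Nr0b1* (chrX:86191764-86195947) encodes DAX1, an atypical receptor without the usual DNA-binding domain that is expressed in embryonic stem cells. It had 1.16 and 1.97 log2-cpm in *siNcor1* at day 3 and 2.50 and 2.03 at day 6, and 0.70 and 1.42 in *siOct4* at day 3 and 3.32 and 3.08 at day 6. With 93 and 98 reads, the *siOct4* day 6 libraries were above all others. The rise was 2.14 in *siOct4*, or 4.41-fold (SE 0.33, limma adjusted p = 2.37e-04), and 0.70 in *siNcor1* (adjusted p = 0.120). The day 6 difference of 0.93 (SE 0.33) was just outside the threshold (adjusted p = 0.0510). Of the alternatives that keep all libraries, 7 put it inside, quantile normalization among them (1.06, adjusted p = 0.0249), and 5 left it outside (adjusted p up to 0.0837). With 1 library left out at a time, the difference lay between 0.69 and 1.17. The interaction of 1.44 (SE 0.47, adjusted p = 0.0483) was lost without a variance trend, without the filter or without normalization factors (adjusted p = 0.0575 to 0.0854). It was also lost without *siNcor1* day 3 replicate 2, *siOct4* day 3 replicate 1, either *siNcor1* day 6 library or *siOct4* day 6 replicate 1 (1.04 to 1.67, adjusted p = 0.0589 to 0.217). In *siOct4* the summed pluripotent cell markers also rose, from 3.16 to 3.59 CPM at day 3 to 35.6 to 37.7 CPM at day 6. At day 6 these sums were lower than the 83.5 to 91.5 CPM of *siNcor1*.

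The cofactors through which these receptors act were compared in the same way. Of 14 tested coactivator genes, 3 were higher and 7 were lower in *siOct4* at day 6 (12.1% and 18.6% of all genes), with *Ppargc1b*, a partner of the oestrogen-related receptors, at 0.99 (SE 0.22, limma adjusted p = 0.0063), *Kat2b* at −0.68 (adjusted p = 0.00932), *Ncoa7* at −0.62 (adjusted p = 0.0119) and *Ncoa1* at −0.58 (adjusted p = 0.0112). From day 3 to day 6, 0 rose and 8 fell in *siNcor1* (13.8% and 20.9% of all genes), among them *Med1* (−0.67) and *Ppargc1b* (−0.66), and 1 rose and 10 fell in *siOct4* (22.2% and 30.5%), with *Ncoa7* at −1.21 and *Ncoa6* at −0.83. The interaction passed for *Ppargc1b* alone of the 14 coactivators (1.15, SE 0.31, adjusted p = 0.0225), and for 20.7% of all tested genes. Of 10 corepressor genes, 0 were higher and 2 lower in *siOct4* at day 6, *Tbl1x* (−0.45, adjusted p = 0.0224) and *Nrip1* (−0.43, adjusted p = 0.0283). Over time 0 rose and 3 fell in *siNcor1*, and 0 rose and 7 fell in *siOct4*, with *Nrip1* at −1.03 (adjusted p = 6.53e-05). *Ncor1* itself, the siRNA target, was the only corepressor that differed at day 3.

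Nuclear receptors outside the 32 also moved. Of 16 such genes 7 were tested, and 4 of the 7 were lower and 0 higher in *siOct4* at day 6, namely *Esrrb* (−2.09, SE 0.46, limma adjusted p = 0.00593), *Pparg* (−1.40, adjusted p = 9.84e-04), *Rxra* (−0.83, adjusted p = 7.55e-04) and *Rarg* (−0.43, adjusted p = 0.0307). At day 6 *Esrra* was higher in *siOct4* and its relative *Esrrb* lower, and *Rxrb* was higher and *Rxra* lower, while *Ppard* and its relative *Pparg* were both lower. At day 3, *Nr5a2* was lower in *siOct4* (−2.20, adjusted p = 0.0190). Over time *Esrrb* and *Nr5a2* rose in both knockdowns, by 5.33 and 1.14 in *siNcor1* and by 3.22 and 2.93 in *siOct4*, and *Pparg* and *Rxra* fell in *siOct4* by 1.52 and 0.66. At day 3 *Esrrb* lay between −2.87 and −2.29 log2-cpm, where −2.87 stands for 0 reads, so the size of its rises rests on values at the floor.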

How the data were processed

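Total RNA of reprogramming MEFs was depleted of ribosomal RNA and sequenced as paired reads. According to the submitters' processing notes, reads were aligned to mm10 (GRCm38) with STAR 2.5.2b, and the authors deposited log2 values (log2-cpm) made with edgeR 3.20.9. The counting tool, annotation and strand setting are not given in the sources used here. The deposited table has 1 column for each of the 8 libraries. Removing a constant from the linear values gave whole reads (100% of values within 0.1 read), hence the depth, and precision rests on 2 libraries per group. Intervals from reads would cover counting error only.

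The log2 values were fitted as deposited with limma 3.58.1 under R 4.3.3 (lmFit on the 4 groups, eBayes with a variance trend, two-sided). Benjamini-Hochberg adjustment ran over 13866 genes, those averaging 1 CPM or more, and the threshold was 0.05. A fold change on the log2-cpm scale understates that of scarce genes. The study's own tests against the control were not repeated. The fitting script was tested on simulated reads with an assumed spread, the same in all groups. That checks the code and not the spread of these libraries. Figures used matplotlib 3.10.9. Coordinates, exon lengths and overlaps are from GENCODE M21 (18969 genes matched), and promoters from RefSeq (GRCm38.p6). *Nr3c1* and *Thra* had no promoter window here.

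The members and all lists were chosen with earlier results of these data known. Every member past the threshold in any of the 5 comparisons (17 of 25) is given by library, the others by range, and a member with a mean under 1 CPM or with 3 reads or fewer in every library was too low to judge. From each list, at most 4 genes past the threshold with the largest changes in a comparison are named. The values given for them are those of the fit above, without the alternatives. Same-numbered replicates were not taken as pairs. Their deviations correlated between −0.0395 and 0.281, and no label says that a number marks a shared batch. The alternatives were other scalings, filters, pseudocounts, variance models, a replicate block, voom and leaving out each library.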

Additional observations from a re-analysis of the deposited data

Results flagged for a closer look

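For 8 receptors the difference between *siOct4* and *siNcor1* changed between day 3 and day 6 by limma's interaction test over all genes, which 20.7% of all tested genes also passed. The values on the log2 scale, day 6 difference minus day 3 difference, were −1.40 for *Vdr*, −1.13 for *Rora*, −0.97 for *Nr6a1*, −0.97 for *Thrb*, −0.68 for *Ppard*, −0.59 for *Nr2f2*, 0.78 for *Esrra* and 1.44 for *Nr0b1* (adjusted p from 0.00639 for *Vdr* to 0.0483 for *Nr0b1*). Of these, *Vdr* alone kept its call without any 1 of the 8 libraries. With 2 libraries a group, single outlying libraries could not be tested for.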

How the results depend on the processing

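Of 39 calls on single receptors, 28 were kept under each alternative that uses all libraries and could test them. Of these, 14 also held without any 1 library, and 0 calls changed direction. There were 13 such alternatives, and 12 for the interaction, which a fit of only the groups compared cannot give. A mean of at least 10 CPM left receptors below that level untested, so that alternative does not count for their calls. The counts of receptors stayed within 1.5 times those reported, except that the interaction was passed by 5 receptors without a variance trend and by 5 with a mean of at least 10 CPM, which leaves 16 receptors tested. Leaving out 1 library at a time gave 3 to 11 receptors at day 6, 3 to 10 over time in *siNcor1*, 10 to 15 over time in *siOct4*, 1 to 9 for the interaction and 0 at day 3 in each case. In the fit with a replicate block, 0 receptors passed at day 3, 11 at day 6, 9 over time in *siNcor1*, 14 in *siOct4* and 9 for the interaction, and over all genes 222, 4698, 5218, 7570 and 3395, but the samples share only a number, so these counts do not stand for a paired design. Over all genes, 148 passed at day 3, 43 without a variance trend, 81 with a mean of at least 10 CPM and 3 to 375 without 1 library, and the 4251, 4819 and 2867 genes of day 6, of *siNcor1* over time and of the interaction came to 1398 to 4669, 2360 to 5954 and 1009 to 3667 without 1 library. The cause of these moves was not tested. Quantile normalization gave 6 higher and 1 lower receptor over time in *siNcor1* against 5 and 2, and totals without normalization factors gave 1 positive and 6 negative interactions against 2 and 6. Totals without *Gm26917* moved the median of all genes over time in *siOct4* by 0.13. A minimum absolute log2 fold change of 0.5 removes, by its construction, *Ppard*, *Rxrb* and *Nr3c1* at day 6 and *Nr1h2* over time in *siNcor1*. Depth limits the 5 receptors with 10 reads or fewer in every library.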
